A study of Mus musculus with 11 samples.

Results

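The genes of MHC class I antigen presentation were described across 11 libraries of the MamBo cell lines, which were established from mammary tumors of FVBhuHER2 mice, a transgenic strain that carries human HER2. The set holds 10 of the 21846 genes in the deposited table and was chosen by role: the heavy chains H2-K1 and H2-D1, the light chain B2m, the peptide transporter subunits Tap1 and Tap2, the loading factor Tapbp, the immunoproteasome subunits Psmb8 and Psmb9, the transactivator Nlrc5 and the trimming peptidase Erap1. The rule uses no measured value, although the members were chosen with earlier results of these data known. MamBo89HER2stable came from tumor A and kept HER2, with 4 libraries: an untreated parental culture, an untreated culture taken as a clone, a culture kept in trastuzumab for 60 days, and a culture kept in trastuzumab for 30 days and then for 30 days without it. MamBo43HER2labile came from tumor B, with 1 untreated HER2-positive library and with 2 libraries of cells that had lost HER2 under either trastuzumab schedule (MamBo43 TRT). MamBo38HER2loss was derived from a tumor that grew after MamBo43 cells were injected into mice, lacked HER2, and had 4 libraries: 2 untreated cultures and 1 under each schedule. Trastuzumab, an antibody against human HER2, was used at 30 µg/ml. The HER2-negative group therefore held 6 libraries (MamBo38 and MamBo43 TRT) and the HER2-positive group 5 (MamBo89 and MamBo43). Each line traces back to a single tumor, each library is 1 culture, and the study describes a small HER2-positive remainder in the treated MamBo43 population.

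MHC class I molecules show peptides from inside a cell to CD8 T cells. The proteasome cuts proteins into peptides, and its immunoproteasome form carries the subunits encoded by Psmb8, Psmb9 and Psmb10 in place of those encoded by Psmb5, Psmb6 and Psmb7. TAP carries the peptides into the endoplasmic reticulum, where ERAP1 trims them and tapasin (Tapbp) helps to load them onto a heavy chain paired with beta-2-microglobulin. NLRC5 is a transactivator that acts on class I promoters together with the RFX, NF-Y and CREB/ATF factors, and interferon gamma raises most of these genes.

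Total counts ranged from 17040454 to 27127662 per library, and 3 counts, taken as the floor of detection, corresponded to between 0.114 and 0.179 CPM, the unit of levels here, in which each library is brought to the same size with edgeR's TMM factors. Among 10 leukocyte markers, Cd14 was the only one above 1 CPM in any library and 3, Adgre1, Cd3e and Tyrobp, were at 0 everywhere. The leukocyte marker sum, nearly all Cd14, was 210 to 418 CPM in MamBo89, 75.7 CPM in MamBo43 and 3.80 to 11.8 CPM in the HER2-negative libraries. Class II genes, which mark professional presenting cells, summed to at most 4.95 CPM. The sum of 5 luminal epithelial markers (Krt8, Krt18, Krt19, Epcam, Cdh1) was 2293 to 3709 CPM in MamBo89 and 3132 CPM in MamBo43, but 1743 and 277 CPM in MamBo43 TRT and 1.25 to 2.45 CPM in MamBo38. The 5 fibroblast markers, led by Col1a2, summed to 35.3 to 96.8 CPM in MamBo89, 283 CPM in MamBo43, 6655 and 7160 CPM in MamBo43 TRT, and 3692 to 4438 CPM in MamBo38. Of these, Thy1 was at most 0.0556 CPM in MamBo38 and at 2.15 CPM in MamBo43. The basal epithelial markers (Krt5, Krt14, Trp63) summed to 9.32 to 35.5 CPM in MamBo89 and 25.0 CPM in MamBo43. In MamBo43 TRT their sum was 44.3 and 156 CPM, and in MamBo38 it was 0.0556 to 1.01 CPM. Thus the luminal epithelial and fibroblast sums moved with HER2 status and the basal sum did not. The part of these markers in the results that follow was not tested. In these bulk samples a change in the proportion of cells that express a gene cannot be told apart from a change in RNA per cell.

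Of the 10 genes, 7 lie on chromosome 17 in GRCm38, with Tapbp (33915899 to 33929292) and H2-K1 (33996017 to 34000347) upstream of the cluster of Psmb9 (34181987 to 34187764), Tap1 (34187553 to 34197225), Psmb8 (34197721 to 34201454) and Tap2 (34203527 to 34216321), and with H2-D1 (35262730 to 35267499) beyond it. B2m lies on chromosome 2 (122147686 to 122153083), Nlrc5 on chromosome 8 (94434356 to 94527272) and Erap1 on chromosome 13 (74639568 to 74693201). Promoter windows of RefSeq (GRCm38.p6), from 250 bases before to 50 bases after a start, were at hand for 8 of the 10 genes, all but Nlrc5 and Tap2. Shown here are the windows of the light chain, both heavy chains, the immunoproteasome subunit with the widest fold range, and the transporter subunit that behaved otherwise, each 5′ to 3′ on the strand of its gene. Capitals mark every match, on either strand, to the interferon-response element (GAAANNGAAA), the kappaB element (GGGANNTTCC), the GAS element, an interferon gamma response motif (TTCNNNGAA), the core of the X2/CRE box bound by CREB/ATF factors (TGACG) or the SP1 box (GGGCGG).
B2m, chr2:122147437-122147736, plus strand: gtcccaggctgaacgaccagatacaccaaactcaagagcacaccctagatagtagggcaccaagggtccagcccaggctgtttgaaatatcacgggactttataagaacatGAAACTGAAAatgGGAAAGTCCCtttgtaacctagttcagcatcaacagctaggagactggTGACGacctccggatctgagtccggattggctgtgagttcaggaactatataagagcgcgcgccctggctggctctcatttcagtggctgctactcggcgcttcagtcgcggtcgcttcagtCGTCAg
H2-K1, chr17:34000298-34000597, minus strand: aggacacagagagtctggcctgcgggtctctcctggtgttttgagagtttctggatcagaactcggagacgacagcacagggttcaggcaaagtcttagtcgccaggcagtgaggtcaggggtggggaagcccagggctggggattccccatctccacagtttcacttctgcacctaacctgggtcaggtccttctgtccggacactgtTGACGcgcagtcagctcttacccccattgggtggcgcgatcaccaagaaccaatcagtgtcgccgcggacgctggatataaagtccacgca
H2-D1, chr17:35262844-35263143, plus strand: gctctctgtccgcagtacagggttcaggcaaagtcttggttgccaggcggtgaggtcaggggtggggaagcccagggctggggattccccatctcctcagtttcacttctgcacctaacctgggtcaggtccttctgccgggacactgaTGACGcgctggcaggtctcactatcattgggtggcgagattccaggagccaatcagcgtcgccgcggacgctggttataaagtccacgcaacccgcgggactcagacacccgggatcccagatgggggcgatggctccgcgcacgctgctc
Psmb8, chr17:34197945-34198244, plus strand: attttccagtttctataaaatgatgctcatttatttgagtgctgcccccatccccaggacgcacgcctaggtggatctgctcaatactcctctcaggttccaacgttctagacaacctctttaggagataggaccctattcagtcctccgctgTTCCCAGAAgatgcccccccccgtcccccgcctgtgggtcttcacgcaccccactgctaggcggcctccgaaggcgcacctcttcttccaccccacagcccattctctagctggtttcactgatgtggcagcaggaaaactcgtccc
Tap1, chr17:34187306-34187605, plus strand: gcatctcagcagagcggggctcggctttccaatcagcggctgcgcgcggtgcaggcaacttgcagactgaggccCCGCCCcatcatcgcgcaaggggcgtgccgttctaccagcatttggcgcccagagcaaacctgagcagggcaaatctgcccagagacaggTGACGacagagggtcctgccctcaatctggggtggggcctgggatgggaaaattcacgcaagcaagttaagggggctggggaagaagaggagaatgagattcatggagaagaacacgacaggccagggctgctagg

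The X2/CRE core was in the windows of 5 of the 8 genes (H2-K1, H2-D1, B2m, Tap1 and Psmb9), and in 20.8% of all 32851 windows. The Tap1 and Psmb9 windows overlap on opposite strands and share that match. B2m alone matched the kappaB pattern as spelled above, which 1.47% of all windows match. Its match to the interferon-response pattern, present in 3.44% of all windows, lay 139 to 130 bases before the start. The only other of the 8 genes with such a match was Erap1. The single GAS element was in the Psmb8 window, where the pattern matches on both strands, and 8.3% of all windows hold one. The SP1 box was in 4 of the 8 genes (Tap1, Psmb9, Tapbp and Erap1), where Tap1 and Psmb9 again share the match, and in 35.7% of all windows. The looser NF-kappaB pattern GGGNNNNNCC, not marked here, was in 5 of the 8 and in 50.8%. The H2-K1 and H2-D1 windows both hold ggggattcccc, which fits this looser pattern but not the strict one. A fixed pattern can miss variants of an element, so a window without a match may still hold one. These are letter matches in the reference strain and no measurement of binding.

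Which of these genes differed between cells with and without HER2 was tested first, with edgeR's quasi-likelihood test over all 12364 genes with enough counts. Calls needed a log2 fold change of at least 1, up or down, together with an adjusted p (Benjamini-Hochberg) under 0.1. B2m, Psmb8, Nlrc5 and H2-D1 were higher in HER2-negative cells, and no member was called lower. That is 4 of 10 called higher, against 15.8% of all genes tested, and 0 of 10 called lower, against 17.0%. For B2m, Psmb8 and Nlrc5 no HER2-negative library overlapped a HER2-positive one, as was so for 34.9% of all genes tested. The median log2 fold change was 0.10 over the 10 members and -0.04 over all genes tested. The comparison across all lines mixes the tumor of origin with HER2 status, since no HER2-negative library came from tumor A. For the same reason, with the tumor of origin as a covariate the HER2 difference rests on tumor B alone. There the HER2-negative libraries stand against the single MamBo43 library. It also counts cultures of 1 line as replicates, and with counts summed per line and HER2 status no member was called (adjusted p = 0.144 for B2m, 0.177 for Nlrc5, 0.364 for Psmb8 and 0.557 for H2-D1).

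**Figure D1:**
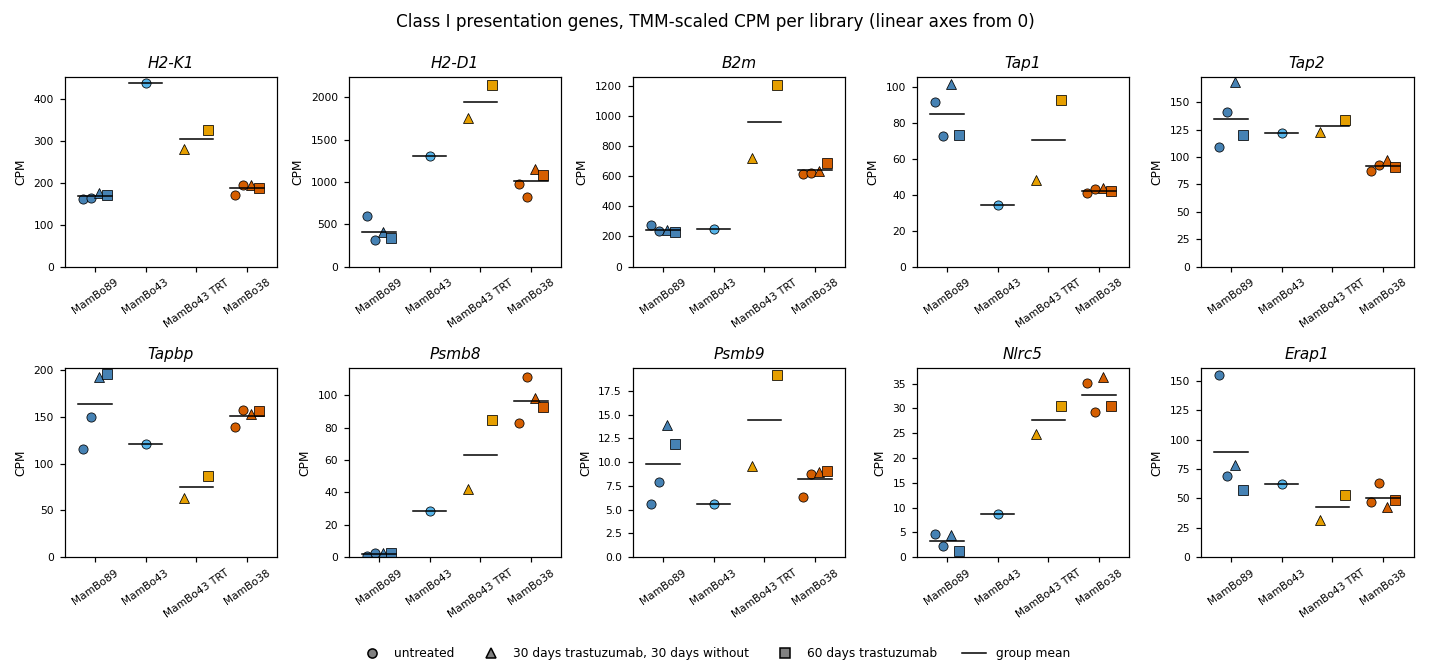
Level of each of the 10 genes (vertical axes, TMM-scaled CPM, linear from 0) in every library of the 4 groups, with the treatment given by the marker shape and the group mean by a line. B2m is between 229 and 274 CPM in the 5 HER2-positive libraries and between 611 and 1206 CPM in the 6 HER2-negative ones, and Psmb8 stays under 3 CPM in MamBo89.

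B2m, the light chain that every classical class I molecule needs, separated the groups by HER2 status. Its level was 274, 237, 243 and 229 CPM in the MamBo89 libraries (clone, parental, 30 days on and 30 off, 60 days) and 246 CPM in MamBo43. In MamBo43 TRT it was 717 CPM after the schedule with withdrawal and 1206 CPM after 60 days of trastuzumab. The MamBo38 libraries had 611 and 624 CPM untreated, 637 CPM after 30 days on and 30 off and 688 CPM after 60 days. All HER2-negative libraries were therefore above all HER2-positive ones, with a log2 fold change of 1.60 ± 0.19 (SE, n = 6 and 5 libraries, edgeR adjusted p = 5.11e-05). Taking the tumor of origin as a covariate left it at 1.59 (adjusted p = 0.012). B2m was also called in both comparisons with MamBo43. It was higher in MamBo43 TRT than in MamBo43 by 1.96 ± 0.29 (adjusted p = 0.00102) and in MamBo38 than in MamBo43 by 1.38 ± 0.27 (adjusted p = 0.00206). These last comparisons and the value with the covariate share the single MamBo43 library.

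Neither heavy chain separated the libraries by HER2 status as B2m did. H2-D1 was at 596, 310, 403 and 334 CPM in MamBo89 in the same order as above, 1311 CPM in MamBo43, 1751 and 2143 CPM in MamBo43 TRT, and 981, 823, 1147 and 1087 CPM in MamBo38. Its order ran from MamBo89 through MamBo38 and MamBo43 to MamBo43 TRT, so that untreated HER2-positive MamBo43 stood above all 4 MamBo38 libraries. H2-D1 was called higher in HER2-negative cells by 1.16 ± 0.41 (adjusted p = 0.0342), with overlap, but with the tumor of origin as a covariate the difference was 0.00 (0.0037, adjusted p = 0.997). Without the 60-day MamBo43 TRT library or the parental MamBo89 library it was 0.97 or 0.99 and under the fold minimum. Between the lines, MamBo38 was higher than MamBo89 by 1.295 ± 0.21 (n = 4 each, adjusted p = 0.000347). MamBo38 and MamBo43 differed by -0.38 ± 0.32 (adjusted p = 0.369) and MamBo43 TRT and MamBo43 by 0.57 ± 0.37 (adjusted p = 0.267), neither of which passed the test.

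H2-K1, the other classical heavy chain in the set, was highest in MamBo43. That library had 437 CPM, against 281 and 326 CPM in MamBo43 TRT, 170, 194, 195 and 188 CPM in MamBo38, and 161, 163, 176 and 172 CPM in MamBo89. MamBo38 was lower than MamBo43 by a log2 fold change of -1.23 ± 0.14 (adjusted p = 7.3e-05). MamBo38 and MamBo89, which overlap, differed by 0.15 ± 0.10 (adjusted p = 0.196). MamBo43 TRT lay between, at -0.53 ± 0.16 from MamBo43 (adjusted p = 0.0336, under the fold minimum) and at 0.70 ± 0.12 from MamBo38 (adjusted p = 0.00171, also under it). Across HER2 status the log2 fold change was 0.02 ± 0.30 (adjusted p = 0.964), and it was -0.96 (adjusted p = 0.035) with the tumor of origin as a covariate.

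Per kb of exon, H2-D1 stood above H2-K1 in every library. The ratio of H2-K1 to H2-D1 in CPM per kb was 0.237, 0.461, 0.384 and 0.451 in MamBo89, 0.293 in MamBo43, 0.141 and 0.134 in MamBo43 TRT, and 0.152, 0.207, 0.149 and 0.152 in MamBo38. The ratio was thus lower in all 6 HER2-negative libraries than in all 5 HER2-positive ones. The mean level of B2m per kb was 286 CPM in MamBo89, 286 CPM in MamBo43, 1118 CPM in MamBo43 TRT and 744 CPM in MamBo38. FVB mice carry another H2 haplotype than the C57BL/6 reference, and reads of the polymorphic heavy chains may be lost or shared between copies, which was not tested. Of the 75-base windows of the reference transcripts, 5.56% for H2-D1 and 3.1% for H2-K1 also occur in other genes, mostly H2-Q1 and H2-Q10, and none do for B2m.

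Among the proteasome genes, Psmb8, whose product (LMP7) replaces the chymotrypsin-like subunit of Psmb5, had the widest range of the set as a ratio of highest to lowest CPM. MamBo89 had 0.682 CPM in the clone (14 counts) and 2.30, 2.62 and 2.45 CPM in the other libraries, MamBo43 had 28.7 CPM, MamBo43 TRT 42.0 and 84.5 CPM, and MamBo38 83.2, 111, 98.6 and 92.6 CPM. The mean in MamBo38 was 47.9 times that in MamBo89, a log2 fold change of 5.58 ± 0.38 (adjusted p = 7.2e-07). HER2-positive MamBo43 already exceeded untreated MamBo89, by 4.29 ± 0.83 (n = 1 and 2, adjusted p = 0.0036). Within tumor B, MamBo38 was higher than MamBo43 by 1.74 ± 0.54 (adjusted p = 0.0252), and MamBo43 TRT differed from MamBo43 by 1.137 ± 0.55 (adjusted p = 0.145), which did not pass the test. Over HER2 status the log2 fold change was 3.52 ± 0.87 (adjusted p = 0.00578), 5.40 without the MamBo43 library, and 1.56 (adjusted p = 0.0936) with the tumor of origin as a covariate. In the 75-base windows, 9.97% of Psmb8 also occur in Gm20496, an overlapping gene model.

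Psmb9, the partner subunit (LMP2), did not move with Psmb8. It was at 5.60, 7.92, 13.9 and 11.9 CPM in MamBo89, 5.56 CPM in MamBo43, 9.55 and 19.2 CPM in MamBo43 TRT, and 6.29, 8.73, 9.01 and 9.03 CPM in MamBo38. MamBo89 and MamBo38 overlapped, with a log2 fold change of -0.25 ± 0.32 (adjusted p = 0.506). Across HER2 status it was 0.19 ± 0.34 (adjusted p = 0.663). In MamBo43 TRT against MamBo43 it was higher by 1.37 ± 0.58 (adjusted p = 0.0987), a call that was lost (0.78, adjusted p = 0.394) without the 60-day library, and with RLE size factors (adjusted p = 0.107). The Psmb9 and Tap1 models overlap at their starts on opposite strands, and 3.44% and 2.4% of their 75-base windows are common to both, which reads without strand cannot tell apart.

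**Figure D2:**
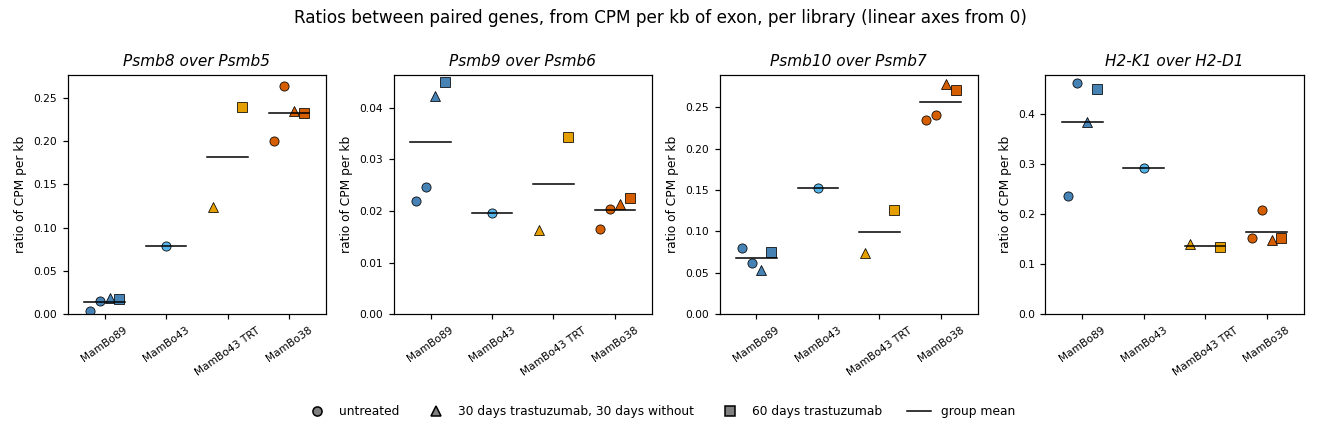
Ratio of each immunoproteasome subunit to its constitutive counterpart, and of H2-K1 to H2-D1 (vertical axes, ratio of CPM per kb of exon, linear from 0), in every library of the 4 groups. The ratio of Psmb8 to Psmb5 is at most 0.0191 in MamBo89 and between 0.200 and 0.263 in MamBo38, whereas that of Psmb9 to Psmb6 is at most 0.0449 in any library.

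Set against the constitutive subunits, the ratio of Psmb8 to Psmb5 in CPM per kb was 0.00358 to 0.0191 in MamBo89, 0.0784 in MamBo43, 0.124 and 0.239 in MamBo43 TRT, and 0.200 to 0.263 in MamBo38. Psmb5 itself was higher in MamBo38 than in MamBo89, by 1.43 ± 0.12 (adjusted p = 3.2e-06). Psmb10, the third immunoproteasome subunit, was higher in MamBo38 than in MamBo89 by 1.87 ± 0.23 (adjusted p = 4.08e-05) and lower in MamBo43 TRT than in MamBo38 by -1.26 ± 0.28 (adjusted p = 0.00828). The ratio of Psmb10 to Psmb7 was 0.234 to 0.277 in MamBo38, 0.152 in MamBo43, 0.0735 and 0.125 in MamBo43 TRT, and 0.0533 to 0.0796 in MamBo89. For Psmb9 to Psmb6 the ratio was 0.0166 to 0.0225 in MamBo38, 0.0196 in MamBo43, 0.0163 and 0.0344 in MamBo43 TRT and 0.0219 to 0.0449 in MamBo89, where the ranges of MamBo38 and MamBo89 overlap. The 3 immunoproteasome subunits therefore differed in their order over the groups.

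The peptide transporter ran the other way in MamBo38 against MamBo89. Against MamBo43, Tap1 stood higher in MamBo38 but was not called. Tap1 was at 91.6, 73.0, 102 and 73.6 CPM in MamBo89, 34.4 CPM in MamBo43, 48.0 and 93.1 CPM in MamBo43 TRT, and 40.8, 43, 43.8 and 41.9 CPM in MamBo38. All MamBo38 libraries were below all MamBo89 libraries, with a log2 fold change of -1.01 ± 0.19 (adjusted p = 0.000997). This lies at the fold minimum, and the change was -0.99 (adjusted p = 1.71e-05) with DESeq2 and between -1.08 and -0.91 with any 1 library left out, which ended the call without 1 of the untreated MamBo38 libraries (replicate 1), 60-day MamBo38, the MamBo89 clone, or MamBo89 after 30 days on and 30 off. In MamBo43 TRT, Tap1 was higher than in MamBo43 by 1.03 ± 0.35 (adjusted p = 0.0447). The 2 MamBo43 TRT libraries differed, and without the 60-day one the change was 0.48 (adjusted p = 0.23).

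Tap2, the other TAP subunit, had 109, 141, 168 and 120 CPM in MamBo89, 121 CPM in MamBo43, 123 and 133 CPM in MamBo43 TRT, and 86.8, 92.6, 97.0 and 90.5 CPM in MamBo38. MamBo38 stood below MamBo89 without overlap, as 59.3% of all genes tested did in either direction, by -0.55 ± 0.14 (adjusted p = 0.00447), under the fold minimum. Tapbp, which encodes tapasin, was at 116, 151, 193 and 196 CPM in MamBo89, 121 CPM in MamBo43, 62.9 and 86.9 CPM in MamBo43 TRT, and 139, 157, 153 and 156 CPM in MamBo38. MamBo43 TRT thus held the lowest levels, and it was lower than MamBo38 by -1.01 ± 0.22 (adjusted p = 0.00755). Without the other untreated MamBo38 library (replicate 2) the difference was -0.995, just under the fold minimum, and without the MamBo43 TRT library of 30 days on and 30 off it was -0.79. Against MamBo43 the change was -0.70 ± 0.29 (adjusted p = 0.0962), under the fold minimum. For Tapbp, 18.6% of 75-base windows also occur in other genes, mostly Gm19412, and for Tap2 8.27%, mostly Gm15821.

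Nlrc5 was low in HER2-positive cells and higher in all HER2-negative libraries. It was at 4.77, 2.30, 4.54 and 1.25 CPM in MamBo89, 8.72 CPM in MamBo43, 24.8 and 30.5 CPM in MamBo43 TRT, and 35.1, 29.3, 36.4 and 30.4 CPM in MamBo38. The log2 fold change was 2.84 ± 0.42 across HER2 status (adjusted p = 0.000239), and 1.82 (adjusted p = 0.0511) with the tumor of origin as a covariate. MamBo38 exceeded MamBo89 by 3.35 ± 0.36 (adjusted p = 1.71e-05) and MamBo43 by 1.91 ± 0.58 (adjusted p = 0.0232). MamBo43 TRT exceeded MamBo43 by 1.66 ± 0.60 (adjusted p = 0.0597), and by 1.51 (adjusted p = 0.165) without the 60-day library. MamBo43 TRT and MamBo38 overlapped, at -0.24 ± 0.40 (adjusted p = 0.683).

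Erap1, which trims peptides to the length that class I molecules hold, was highest in the MamBo89 clone. It was at 155, 68.7, 78.3 and 57.5 CPM in MamBo89, 62.1 CPM in MamBo43, 31.7 and 52.7 CPM in MamBo43 TRT, and 46.6, 63.3, 42.4 and 48.9 CPM in MamBo38. Across HER2 status the groups overlapped at -0.83 ± 0.26 (adjusted p = 0.0209), under the fold minimum, and the value was -0.39 (adjusted p = 0.551) with the tumor of origin as a covariate. Of its 75-base windows, 10.4% also occur in Cast, a neighbouring gene.

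**Figure D3:**
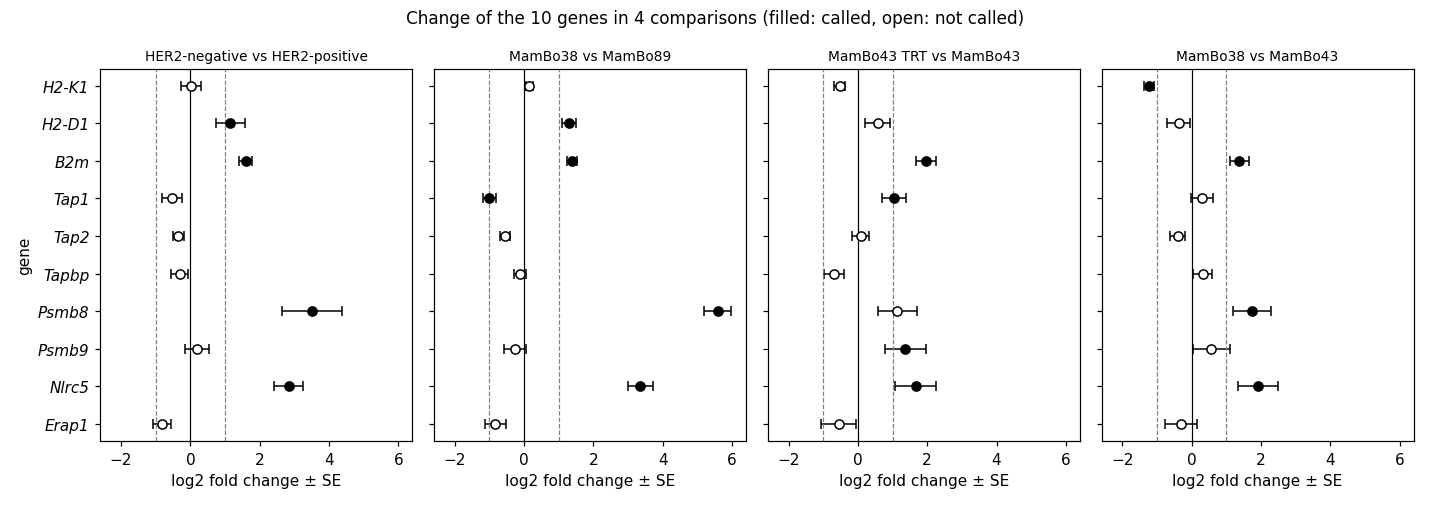
Log2 fold change (horizontal axes, points with SE bars) of the 10 genes (vertical axis) in 4 comparisons from edgeR fits, with filled points for genes called at an adjusted p under 0.1 and a change past the dashed lines at 1 and -1. Only B2m and Nlrc5 are filled in all 4 panels, while H2-K1 is filled, to the left, in MamBo38 against MamBo43 alone.

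Between the stable and the HER2-loss line, MamBo38 against MamBo89, 4 members (H2-D1, B2m, Psmb8 and Nlrc5) were called higher and 1 (Tap1) lower, where 19.9% and 22% of 13782 genes were. The median log2 fold change was 0.02 over the members and -0.07 over all genes tested. For MamBo43 TRT against MamBo43, which share the line and differ in trastuzumab and HER2, 4 members (B2m, Tap1, Psmb9 and Nlrc5) were called higher and 0 lower, against 13.6% and 15.5% of all genes, with medians of 0.80 and 0.00. Without the 60-day library B2m alone remained called, and without the other MamBo43 TRT library Psmb8 was called as well. In MamBo38 against MamBo43, 3 members (B2m, Psmb8 and Nlrc5) were higher and 1 (H2-K1) lower, against 17.4% and 18.5%. B2m and H2-K1 were the 2 called when MamBo38 entered with replicate 2 alone, the only MamBo38 library whose name carries the same code as the libraries of the other lines, and for Psmb8 (1.96, adjusted p = 0.117) and Nlrc5 (1.75, adjusted p = 0.172) the call was lost. Between both HER2-negative groups, MamBo43 TRT and MamBo38, 0 members were called higher and 1 (Tapbp) lower, against 10.2% in either direction.

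Whether HER2-positive cells of tumor A and tumor B differed before any loss was tested with 1 library of MamBo43 and the 2 untreated libraries of MamBo89. H2-K1 was higher in MamBo43 by 1.46 ± 0.46 (adjusted p = 0.0807), as was Psmb8, and no member was lower. These 2 of 10 stand beside 4.87% of 12867 genes called higher and 2.53% called lower. With all 4 MamBo89 libraries in the fit of 4 groups, 5 members were called: H2-K1, H2-D1 (1.67), Psmb8 and Nlrc5 (1.44) higher and Tap1 (-1.31) lower. In that fit 1521 of 13782 genes were called higher and 1083 lower. B2m was at 246 CPM in MamBo43 and at 274 and 237 CPM in untreated MamBo89, a difference of -0.03 ± 0.48 (adjusted p = 0.995).

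Trastuzumab within MamBo89 or within MamBo38, with 2 treated and 2 untreated libraries each, gave no called gene at all. The share called was 0% in both directions of 12046 and of 11861 genes, and 186 and 503 genes had an unadjusted p under 0.05. DESeq2 called 9 and 5 genes. Member changes ran from -0.73 (Erap1) to 0.94 (Psmb9) in MamBo89 and from -0.28 (Erap1) to 0.29 (H2-D1) in MamBo38. The untreated MamBo89 libraries differed from each other, and without the parental one, that is, against the clone alone, 2296 genes were called, among them Psmb8 (1.87) and Psmb9 (1.19) higher and Erap1 (-1.20) lower. In MamBo38, leaving out replicate 1 gave 1057 called genes and 0 members. That fit sets both treated MamBo38 libraries against untreated replicate 2, whose name carries another code than theirs. Treatment and code cannot be told apart there, and the full comparison holds untreated libraries of both codes. The trastuzumab effect in MamBo43 minus that in MamBo89 was called for 2 members. B2m had a difference of 2.08 ± 0.39 (adjusted p = 0.0142) and Tapbp of -1.24 ± 0.31 (adjusted p = 0.0327), where 11.1% of genes were called higher and 11.2% lower. In MamBo43 the contrast also holds the loss of HER2, which cannot be told apart from the drug.

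Other genes of the pathway were taken from a list of 69, of which 67 were in the table. Over HER2 status 61 were tested, and 7 were called higher and 10 lower, beside 15.8% and 17.0% of all genes, with a median of 0.01 beside -0.04. In MamBo38 against MamBo89, 9 of 66 were higher and 15 lower, beside 19.9% and 22% of all genes, with a median of -0.30 beside -0.07. In MamBo43 TRT against MamBo43 it was 7 and 10 of 66, beside 13.6% and 15.5%, with a median of -0.09 beside 0.00. In MamBo38 against MamBo43 it was 5 and 13, beside 17.4% and 18.5%, with a median of -0.07 beside 0.00. MamBo43 TRT had 9 higher and 3 lower than MamBo38, beside 10.2% in either direction, with medians of 0.01 and 0.01. No direction was common to the list in all comparisons.

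Of 12 other heavy chains tested in MamBo43 TRT against MamBo38, 6 were called higher and 1 lower, beside 10.2% of all genes in either direction. H2-Q1, H2-Q2, H2-Q4, H2-Q6, H2-Q7 and H2-Q10 were the ones called higher, with H2-Q7 at 17.1 and 41.0 CPM against 1.73 to 3.56 CPM (log2 fold change 3.58 ± 0.43, adjusted p = 0.00026). Levels of H2-Q1, H2-Q2 and H2-Q10 were low, at 0.652 to 1.73 CPM in MamBo43 TRT and at most 0.779 CPM in MamBo38. H2-Q4 had 92.2 and 129 CPM in MamBo43 TRT, 113 CPM in MamBo43, 44.6 to 58.8 CPM in MamBo38 and 22.4 to 58.2 CPM in MamBo89. H2-T23, which encodes Qa-1, was at 11.9 to 41.5 CPM in MamBo89, 8.22 CPM in MamBo43, 6.57 and 7.10 CPM in MamBo43 TRT and 5.72 to 8.29 CPM in MamBo38. Its difference over HER2 status was -1.68 ± 0.36 (adjusted p = 0.00238), but HER2-positive MamBo43, from tumor B, lay within the HER2-negative range. The levels thus divided by tumor of origin and not by HER2 status, with 1 library of MamBo43. H2-M3, which presents formylated peptides, was at 12.0 to 14.4 CPM in MamBo38, 11.4 CPM in MamBo43, 9.55 and 12.8 CPM in MamBo43 TRT, and 1.29 to 2.68 CPM in MamBo89. Mr1, which presents microbial vitamin metabolites, was higher in MamBo38 than in MamBo89 by 2.36 ± 0.23 (adjusted p = 7.9e-06) and lower in MamBo43 TRT than in MamBo38 by -1.11 ± 0.28 (adjusted p = 0.0135). These genes are near copies of each other, so reads may be split between them, and the strain's haplotype may add to this, which was not tested.

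**Figure D4:**
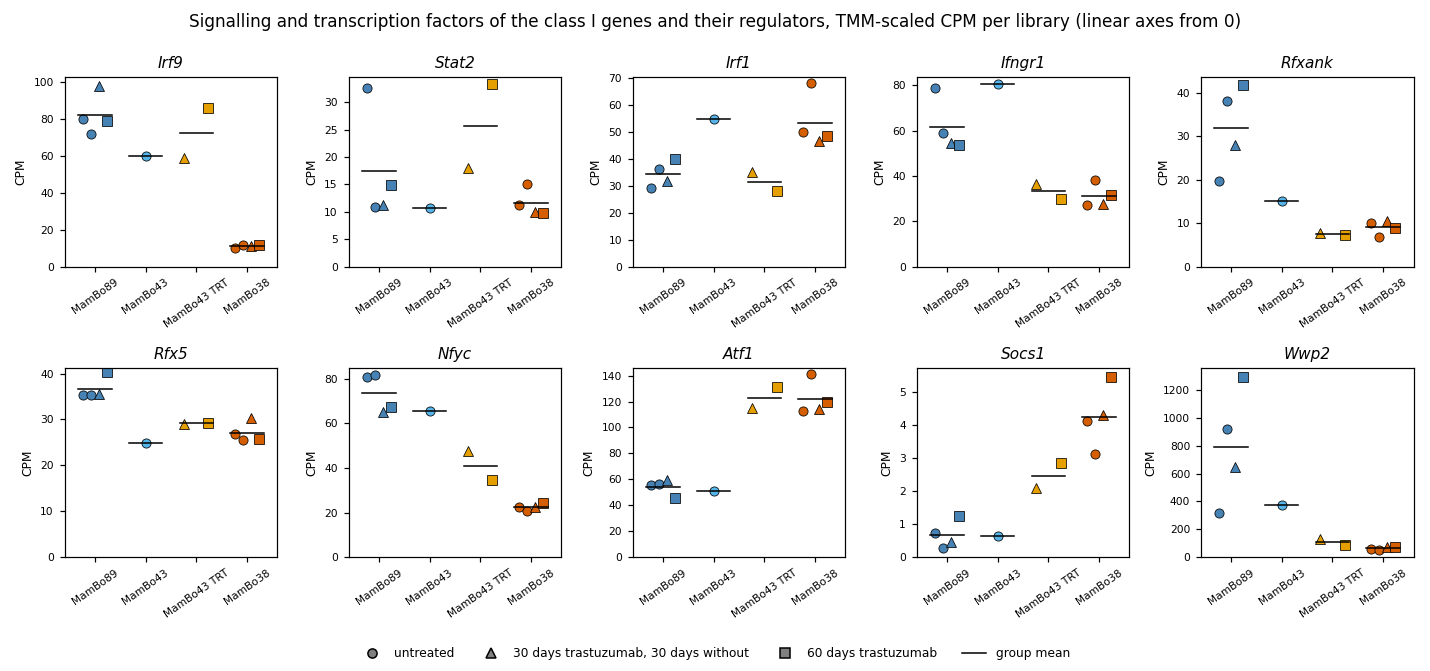
Levels of interferon signalling genes (Irf9, Stat2, Irf1, Ifngr1), partners of NLRC5 (Rfxank, Rfx5, Nfyc), a CREB/ATF factor (Atf1) and regulators (Socs1, Wwp2) in every library (vertical axes, TMM-scaled CPM, linear from 0). Irf9 is at 9.94 to 11.9 CPM in MamBo38 and at 58.8 CPM or more in every other library, and Atf1 is at 112 CPM or more in the HER2-negative libraries and at 59.2 CPM or less in the others.

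Among interferon signalling genes, Irf9 was lowest in MamBo38, the line in which B2m, Psmb8 and Nlrc5 were high. Irf9, a factor of the type I interferon response, was at 79.7, 72.0, 98.0 and 79.0 CPM in MamBo89, 59.7 CPM in MamBo43, 58.8 and 86.0 CPM in MamBo43 TRT, and 9.94 to 11.9 CPM in MamBo38. MamBo38 was lower than MamBo89 by -2.88 ± 0.16 for Irf9 (adjusted p = 1.52e-07). MamBo43 TRT was higher than MamBo38 by 2.70 ± 0.17 for Irf9 (adjusted p = 8.69e-06) and by 1.15 ± 0.43 for Stat2 (adjusted p = 0.067). Irf1, a direct activator of class I promoters, was at 46.3 to 68.0 CPM in MamBo38, 54.7 CPM in MamBo43, 28.0 and 34.8 CPM in MamBo43 TRT and 28.9 to 39.9 CPM in MamBo89, and was not called in any of the comparisons between groups. Ifngr1, a chain of the interferon gamma receptor, was at 27.3 to 38.3 CPM in all 6 HER2-negative libraries and at 53.7 to 80.7 CPM in the HER2-positive ones (-1.04 ± 0.15, adjusted p = 0.000211). Socs1, an inhibitor of JAK signalling, was higher in HER2-negative cells by 2.43 ± 0.42 (adjusted p = 0.000597), at 2.11 to 5.47 CPM against 0.276 to 1.25 CPM.

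Partners of NLRC5 at class I promoters moved in both directions. Rfxank was at 6.90 to 10.4 CPM in HER2-negative and 15.1 to 41.7 CPM in HER2-positive libraries (-1.75 ± 0.27, adjusted p = 0.000289), and Nfyc was lower as well (-1.34 ± 0.22, adjusted p = 0.000454). Of the CREB/ATF factors, Atf1 was higher by 1.18 ± 0.10 (adjusted p = 9.2e-06). Creb1 went the other way, at 20.6 to 33.7 CPM in HER2-negative and 38.3 to 87.5 CPM in HER2-positive libraries. Rfx5, with 24.8 to 40.4 CPM over all libraries, and Rfxap, with 11.3 to 28.3 CPM, were not called. Of 8 negative regulators of class I or of interferon signalling, 1 (Socs1) was called higher in HER2-negative cells and 3 lower, while Eed, Suz12, Tmem127 and Socs3 were not called. Wwp2 was lower by -3.19 ± 0.39 (adjusted p = 6.6e-05), at 319 to 1296 CPM in MamBo89, 376 CPM in MamBo43, 131 and 83.9 CPM in MamBo43 TRT and 53.8 to 71.7 CPM in MamBo38. Susd6 was lower by -1.53 ± 0.25 (adjusted p = 0.0005), but its 276 CPM in MamBo43 stood beside 275 CPM in 60-day MamBo43 TRT, with 467 to 816 CPM in MamBo89. Ezh2, the PRC2 methyltransferase, was lower by -1.12 ± 0.23 (adjusted p = 0.0021), with 39.9 CPM in MamBo43 beside up to 39.8 CPM in MamBo38 and 61.0 to 107 CPM in MamBo89. WWP2 is a ubiquitin ligase that acts with SUSD6 and TMEM127 on class I heavy chains. Nrd1, which encodes nardilysin, a peptidase that makes class I ligands, was higher by 1.11 ± 0.17 (adjusted p = 0.000283).

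The pattern over libraries was compared within the set as Pearson's r of log2(CPM + 1) over the 11 libraries, as a description in which libraries of 1 line share their origin. Nlrc5 ran closest to Psmb8 (r = 0.934) and B2m (0.899), and H2-D1 was near Nlrc5 (0.83) and B2m (0.804). Tap1 was near Tap2 (0.687) and ran against Psmb8 (-0.688), although both lie in 1 cluster. H2-K1 was closest to H2-D1 (0.706). Among genes outside these lists with a mean of at least 10 CPM, those most like H2-K1 were Kcnj15 (0.971), AC147806.2 (0.971), Hspb1 (0.949), Dynll2 (0.945) and 5730409E04Rik (0.943), several of which were near 0 outside MamBo43 and MamBo43 TRT. Those most like Tap1 were Tbl1x (0.95), Xaf1 (0.933), Prpf18 (0.931), Ankrd26 (0.917) and Gbp3 (0.914). Gbp3 and Xaf1 are known as interferon-induced genes, and Gbp3 was at 30.9 to 62.3 CPM in MamBo89, 8.87 and 31.5 CPM in MamBo43 TRT, 5.75 CPM in MamBo43 and 1.43 to 3.67 CPM in MamBo38.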

How the data were processed

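The 11 libraries, 1 for each culture, were sequenced in single-end mode over 75 nucleotides with a kit that keeps no strand. According to the methods and the submitters' processing notes, the authors demultiplexed with bcl2fastq, aligned with STAR 2.5 to mm10, and deposited expected counts from RSEM 1.3.0, which are not normalized. All deposited values were whole, so no rounding was needed. The annotation and any filter are not given in the sources used here. Groups come from the labels. The labels do not call any MamBo89 library a clone, and the untreated one whose name differs was taken as the clone in the methods. Nothing says that libraries of a group stem from separate thaws, so p-values measure the spread between cultures. This spread also holds differences of clone and treatment in MamBo89, of treatment and library code in MamBo38, and of schedule in MamBo43 TRT.

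In R 4.3.3, genes were kept with edgeR's filterByExpr (edgeR 4.0.16, minimum count 10, minimum total 15), scaled by TMM and tested with glmQLFit and glmQLFTest, with Benjamini-Hochberg adjustment over all genes tested. Thresholds were those of the study's methods, an adjusted p under 0.1 and a log2 fold change of at least 1. MamBo38, MamBo43, MamBo43 TRT and MamBo89 were compared in 1 fit of 4 groups, in which the single MamBo43 library is assumed to vary like the other groups. MamBo43 against untreated MamBo89 and the treatment comparisons within MamBo89 and MamBo38 used only their own libraries. The difference in trastuzumab effect came from 1 fit of all libraries, grouped by line and treatment. The SE is the absolute log2 fold change over the square root of F. Fold changes use a prior count of 0.125. Levels per kb use the joined exon length of GENCODE M21 on GRCm38.

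All 10 members are named. Other pathway genes were named when called over HER2 status without overlap or when their role pairs with a member, and the 5 genes most like H2-K1 and Tap1 by Pearson's r. The members and lists were chosen with earlier results of these data known. One gene of the pathway list is not reported here. The scripts were tested on simulated counts. Intervals from depth cover counting error only. Alternatives were DESeq2 1.42.0, RLE factors, other filters, a stricter threshold, subsets of libraries, summed counts, leaving out each library and a term for the tumor of origin.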

Additional observations from a re-analysis of the deposited data

Results flagged for a closer look

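In groups of 4 libraries, the highest or lowest library was set apart by its gap to the nearest one, and 2 of 20 groups of members were marked, where chance marks about 1 in 20. Psmb8 was at 0.682 CPM in the MamBo89 clone, against 2.30 to 2.62 CPM in the other MamBo89 libraries, a gap of 0.835 of the range. Psmb9 was at 6.29 CPM in an untreated MamBo38 library (replicate 1), against 8.73 to 9.03 CPM in the others, a gap of 0.89 of the range.

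The change with trastuzumab differed between MamBo43 and MamBo89, by the test of that difference in edgeR, for B2m (2.08 on the log2 scale, adjusted p = 0.0142) and for Tapbp (-1.24, adjusted p = 0.0327). B2m was 717 and 1206 CPM in MamBo43 TRT against 246 CPM in MamBo43, and 243 and 229 CPM in treated against 274 and 237 CPM in untreated MamBo89. Tapbp was 62.9 and 86.9 CPM in MamBo43 TRT against 121 CPM in MamBo43, and 193 and 196 CPM in treated against 116 and 151 CPM in untreated MamBo89. A single untreated MamBo43 library stands behind both.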

How the results depend on the processing

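Of 989 values of single members under alternatives, 885 kept their direction and their side of the threshold, 32 lost and 30 gained a call, and 42 changed sign, none of them a called value. The cause was not tested. No paired analysis was run, since the labels give the groups no replicate numbers, although the lines share their trastuzumab schedules. With the library code as a covariate, 4 members were called higher over HER2 status, beside 1823 of 12364 genes called higher and 1937 lower. Over HER2 status, the tumor of origin as a covariate changed the sign of H2-K1 (-0.96), Tap1 (0.58) and Tapbp (0.044) and ended the call of H2-D1. Untreated libraries alone gave 2 members called higher (B2m and Nlrc5), beside 1636 of 12848 genes called higher and 1841 lower. There H2-K1 was at -0.47 and Tapbp at 0.21. Counts summed per line and HER2 status gave 4 called genes, 0 members, and H2-K1 at -0.29. Over HER2 status DESeq2 gave no adjusted p for Psmb8. At an adjusted p under 0.05, called members were 2 in MamBo43 TRT against MamBo43 and 1 in MamBo43 against MamBo89, and the difference in trastuzumab effect had 1991 called genes against 3062. With libraries of 1 code only, called members were 1 in MamBo43 TRT against MamBo43, 2 in MamBo38 against MamBo43, where Erap1 was 0.033, and 0 in MamBo43 TRT against MamBo38. For MamBo43 against MamBo89, DESeq2 put Tap2 at 0.0028, and the fit of 4 groups gave 2604 genes, 5 members and B2m at 0.0032, against 952 genes and 2 members. DESeq2 called 9 genes for trastuzumab in MamBo89 and 5 in MamBo38.

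With 1 library left out, over HER2 status H2-K1 ranged from -0.11 to 0.42 and Psmb9 from -0.082 to 0.40, and Psmb8 from 3.23 to 5.40 (without MamBo43). Called members ranged from 1 to 5 in MamBo43 TRT against MamBo43, from 0 to 3 in MamBo43 TRT against MamBo38 (Erap1 -0.66 to 0.078), and from 4 to 5 in MamBo43 against MamBo89 (2300 to 3369 genes, B2m -0.028 to 0.11), where leaving out any library used the fit of 4 groups. For trastuzumab in MamBo89, 0 to 2296 genes and 0 to 3 members were called, and H2-D1 ranged from -0.71 to 0.27, B2m from -0.23 to 0.013, Tap1 from -0.16 to 0.31, Tap2 from -0.051 to 0.43, Nlrc5 from -1.49 to 0.35 and Erap1 from -1.20 to 0.0004. In MamBo38, 0 to 1057 genes were called, and H2-K1 ranged from -0.016 to 0.14, Tap1 from -0.018 to 0.056, Tap2 from -0.0049 to 0.11, Tapbp from -0.013 to 0.13, Psmb8 from -0.21 to 0.17 and Nlrc5 from -0.11 to 0.19. The difference in trastuzumab effect had 1606 to 4428 called genes and 2 to 4 members, with Tap2 from -0.36 to 0.13, Psmb8 from -0.75 to 0.97, Psmb9 from -0.15 to 0.81 and Erap1 from -0.57 to 0.62. Counts of the members were lowest for Psmb8 and Nlrc5 in MamBo89, and the number of libraries limits every comparison with MamBo43.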
